A study of Mus musculus with 217 samples.

Results

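The 7 genes described here encode subunits of the GABA-A receptor, the chloride channel through which GABA inhibits neurons. They are Gabra2, Gabra3, Gabra4 and Gabra5 (subunits α2, α3, α4 and α5), Gabrb1 and Gabrb2 (β1 and β2) and Gabrd (δ). They were taken by symbol from the processed RNA-seq table of each of 3 regions of the mouse striatum. All 7 were found in each table, among 11867 genes in the nucleus accumbens (NAc), 12101 in the dorsomedial striatum (DMS) and 11394 in the dorsolateral striatum (DLS). The animals were male and female C57BL/6J mice of about 10 weeks, kept under a cycle of 12 h light and 12 h dark. Tissue was collected at Zeitgeber times (ZT, hours after lights on) 2, 6, 10, 14, 18 and 22. ZT14, ZT18 and ZT22 fall in the dark phase, when mice are active, and ZT2, ZT6 and ZT10 in the light phase. The labels name no treatment and no transgene for any group. There were 217 libraries from 93 animals: 77 from NAc (40 male, 37 female), 70 from DMS (36 male, 34 female) and 70 from DLS (35 male, 35 female), with 5 to 7 libraries for each sex, time and region. The comparisons ask which subunits follow time of day, whether males and females differ, and whether the regions differ.

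GABA-A receptors are pentamers. α subunits set where a receptor sits and which drugs it answers to, β subunits form the GABA binding site together with α, and δ takes the place of γ in receptors outside the synapse. In the striatum most neurons are GABAergic medium spiny neurons, whose synaptic receptors contain α2 and whose tonic inhibition is carried by extrasynaptic receptors with α4 and δ or with α5. The strain limits one member: C57BL/6J mice carry a private intronic deletion in Gabra2 that is known to lower its RNA and protein.

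On the GRCm38 build (GENCODE M21) the members lie on 5 chromosomes. Gabra2 (ENSMUSG00000000560) spans chr5:70957597-71095849 on the minus strand. Gabra4 (ENSMUSG00000029211, chr5:71569749-71658308, minus strand) and Gabrb1 (ENSMUSG00000029212, chr5:71658113-72149037, plus strand) stand head to head in the same cluster and share 46 exonic bases. Gabra5 (ENSMUSG00000055078) spans chr7:57407672-57510059 on the minus strand and shares 148 exonic bases with the antisense gene Gm9962. Gabrb2 (ENSMUSG00000007653) spans chr11:42419757-42629028 on the plus strand. Gabrd (ENSMUSG00000029054) spans chr4:155384980-155398112 on the minus strand, and Gabra3 (ENSMUSG00000031343) chrX:72432681-72656848 on the minus strand. Whether the counting used strand is not given in the sources used here, so reads in the overlaps of Gabra4 with Gabrb1 and of Gabra5 with Gm9962 cannot be told apart.

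The 250 bases before the annotated start (RefSeq, GRCm38.p6) are shown for Gabra2, the member with the clearest daily rhythm below, for Gabra4 and Gabrb1, which face each other across their starts and differed in opposite directions between DMS libraries, and for Gabra3, which has no CG dinucleotide there. CG dinucleotides are in capitals, and each sequence reads 5′ to 3′ on the gene's own strand. The Gabra2 window is chr5:71095850-71096099 (minus), that of Gabra4 is chr5:71658309-71658558 (minus), the outer of the 2 Gabrb1 windows is chr5:71657671-71657920 (plus), and the outermost of the Gabra3 windows is chrX:72656920-72657169 (minus).
Gabra2: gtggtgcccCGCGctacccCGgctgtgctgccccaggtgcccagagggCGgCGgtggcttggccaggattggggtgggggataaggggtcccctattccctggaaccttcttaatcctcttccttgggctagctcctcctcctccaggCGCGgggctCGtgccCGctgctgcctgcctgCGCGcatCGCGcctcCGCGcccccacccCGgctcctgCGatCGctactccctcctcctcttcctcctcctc
Gabra4: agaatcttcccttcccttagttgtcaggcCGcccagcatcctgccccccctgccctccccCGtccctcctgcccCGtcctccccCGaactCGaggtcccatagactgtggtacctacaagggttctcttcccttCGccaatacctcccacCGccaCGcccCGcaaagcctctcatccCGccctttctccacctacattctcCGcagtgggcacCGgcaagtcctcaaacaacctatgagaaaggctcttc
Gabrb1: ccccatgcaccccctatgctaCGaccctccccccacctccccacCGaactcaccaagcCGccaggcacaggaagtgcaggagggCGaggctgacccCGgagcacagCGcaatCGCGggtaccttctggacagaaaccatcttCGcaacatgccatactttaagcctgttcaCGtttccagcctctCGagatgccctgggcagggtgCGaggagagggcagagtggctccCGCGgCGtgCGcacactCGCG
Gabra3: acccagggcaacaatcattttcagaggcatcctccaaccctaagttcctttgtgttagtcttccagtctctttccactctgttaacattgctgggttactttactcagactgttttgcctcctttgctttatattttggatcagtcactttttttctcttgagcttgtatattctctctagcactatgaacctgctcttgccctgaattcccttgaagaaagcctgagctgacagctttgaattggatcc
Gabra2 and Gabrb1 each had 18 CG dinucleotides in these 250 bases, Gabra4 had 12 and Gabra3 had 0, against a median of 6 and a range of 0 to 56 over 32851 mouse windows. The inner Gabrb1 window, chr5:71699682-71699931 (plus), had 6. Gabra2 had more CG than 78.3% of the windows. Windows were found for 6 of the 7 members, 10 windows in all, and Gabrd had none in the table. The letters of 4 elements that clock and cAMP factors are known to bind were searched on both strands of the windows, including the 50 bases after the start: CACGTG (E-box), TTATGTAA (D-box), AGGTCA (core of the element of the nuclear receptors ROR and REV-ERB) and TGACGTCA (cAMP element). None of the 4 strings contains another, and a window counted once for each string it held. No member window held any of them, while 7.15%, 0.938%, 16.3% and 1.79% of all windows did, in the order given.

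Read depth could be recovered for DMS (35.7 to 57.5 M counted reads per library) and DLS (29.7 to 56.8 M), and is unknown for NAc. The share taken by mitochondrial rRNA varied from 22.7% to 50.6% in NAc, from 19.02% to 52.6% in DMS and from 13.2% to 53.03% in DLS. In DMS it fell into a high class of 33 libraries (35.28% or more) and a low class of 37 (29.88% or less), and the high class was spread unevenly over time, with 3 of 12, 4 of 12, 7 of 11, 7 of 11, 10 of 12 and 2 of 12 libraries from ZT2 to ZT22. All 26 DMS libraries of animals numbered 31 or higher were in the high class. The main DMS rhythm fits are therefore given without and with a term for class. DMS results where that term is not mentioned are without it. In DLS a male library at ZT6 stood apart, with 5.51 M reads outside the 3 most abundant genes, against 21.3 M in the median DLS library, and the rhythm, dark minus light and ZT18 minus ZT6 of members called in DLS are given without it too. All 10 listed medium spiny neuron markers were in each table, while of 8 cortical neuron markers Neurod6, Neurod2, Slc30a3 and Fezf2 were in no table, nor was Tbr1 in the DMS table.

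Levels below are the deposited values on the log2 scale of normalised counts, here corrected for the summed exon length of each gene (log2 per kilobase) so that genes can be set against each other. Gabra4 had the highest level of the 7 in every region: 9.97 ± 0.31 in NAc (SD, n = 77), 10.26 ± 0.37 in DMS (n = 70) and 10.41 ± 0.15 in DLS (n = 70). Gabrd came next, at 9.57 ± 0.31, 9.79 ± 0.23 and 9.62 ± 0.16 in the same order of regions, and then Gabrb2, at 8.996 ± 0.17, 9.20 ± 0.11 and 8.90 ± 0.12. Gabra4 exceeded Gabrd within 77 of 77 NAc libraries, 68 of 70 DMS libraries and 70 of 70 DLS libraries.

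Gabrd exceeded Gabrb2 within 71 of 77, 70 of 70 and 70 of 70 libraries. How far apart this pair stood depended on the length used. With the longest transcript in place of all exons, Gabrd was above Gabrb2 in 36 of 70 DMS and 50 of 70 DLS libraries, with a mean difference of 0.13 ± 0.21 (log2, SD) in DLS. In NAc Gabrb2 then had the higher mean, by 0.02 ± 0.40, and was above Gabrd in 37 of 77 libraries. With that length the pair differed by less than its spread in each region. In NAc, Gabra5 followed, below Gabrb2 in 60 of 77 libraries. The remaining members lay lower and close together, as did Gabra5 in DMS and DLS. Gabra2 had 7.53 ± 0.32, 7.78 ± 0.26 and 7.40 ± 0.27 in NAc, DMS and DLS. Gabrb1 had 7.78 ± 0.44, 8.04 ± 0.36 and 7.20 ± 0.20, and its order against Gabra2 turned with the length used in NAc and DMS. In DLS, neighbours at the bottom of the order differed by less than their spread, for example Gabrb1 over Gabra5 in 41 of 70 libraries.

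**Figure D1:**
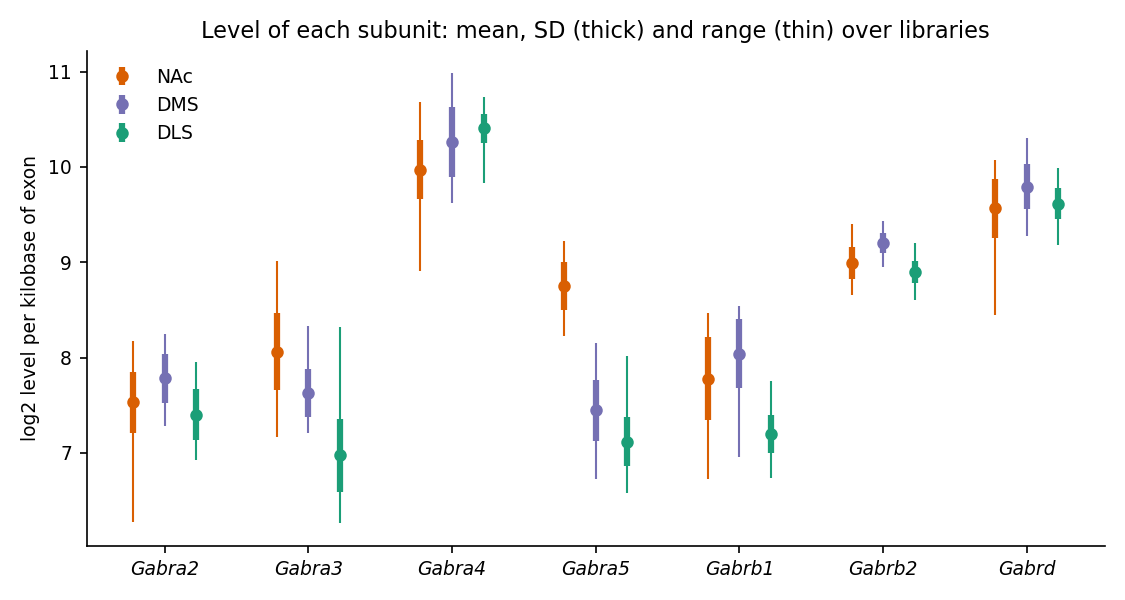
Level of each subunit gene in NAc, DMS and DLS, as log2 normalised count per kilobase of exon (vertical axis). Points are means over libraries (n = 77, 70 and 70), thick bars the SD and thin bars the range. Gabra4 stands highest in each region, and Gabra5 and Gabra3 lie higher in NAc than in DMS or DLS, on tables that were normalised separately.

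Of the 7 members, Gabra5 (the α5 subunit) had the widest gap in mean level between regions. Its level was 8.75 ± 0.25 in NAc, 7.45 ± 0.32 in DMS and 7.12 ± 0.26 in DLS. On the deposited scale without length, its 77 NAc libraries (9.80 to 10.80) did not overlap the DMS libraries (8.30 to 9.72) or the DLS libraries (8.15 to 9.59). Gabra3 also stood higher in NAc (8.06 ± 0.40) than in DMS (7.63 ± 0.25) or DLS (6.97 ± 0.38), with overlapping ranges. The 3 tables were normalised separately, so these differences in level were not tested, and the share of all genes without such overlap is not given here. A share within a library does not depend on a scaling factor per library. It is not free of an adjustment made gene by gene, and the NAc table may hold a further adjustment of unknown kind. Gabra5 made up 12.7% of the summed level per kilobase of the 7 members in NAc, 4.90% in DMS and 4.37% in DLS. Gabra4 made up 29.5%, 34.4% and 42.2%, Gabrd 22.3%, 24.7% and 24.5%, and Gabra2 5.51%, 6.23% and 5.35%.

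Daily rhythm was tested by fitting a cosine and a sine of 24 h with a term for sex, by limma across all genes of a table, with Benjamini-Hochberg adjustment and a threshold of 0.05. Amplitude is the fitted distance from the midline to the peak on the log2 scale, and the fold is the fitted peak over the trough. Gabra2 was rhythmic in all 3 regions, with a peak in the late dark phase and a trough around ZT10. Gabrd was rhythmic in DLS, with a peak in the light phase near ZT6, and in DMS once class was in the model. Gabra4 and Gabrb2 were called in DMS without the class term and not with it. Gabra3, Gabra5 and Gabrb1 were called in no region in these fits. In DMS, Gabra5 (0.15, adjusted p = 0.00941, limma) and Gabrb1 (0.30, adjusted p = 0.0206) were called with every library scaled to the same sum. Gabrb1 was also called with the share of mitochondrial rRNA as a covariate (0.11, adjusted p = 0.0365, limma). Of all 12101 genes, 9320 were called rhythmic at the same sum and 3459 with that covariate. The count of rhythmic members was 1 of 7 in NAc, where 2.56% of all genes were called, 3 of 7 in DMS (51.3% of all genes), 2 of 7 in DMS with the class term (25.2%) and 2 of 7 in DLS (21%). The median fold of the members was 1.09 in NAc, 1.11 in DMS, 1.12 in DMS with the class term and 1.03 in DLS, against 1.11, 1.16, 1.09 and 1.10 for all genes.

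**Figure D2:**
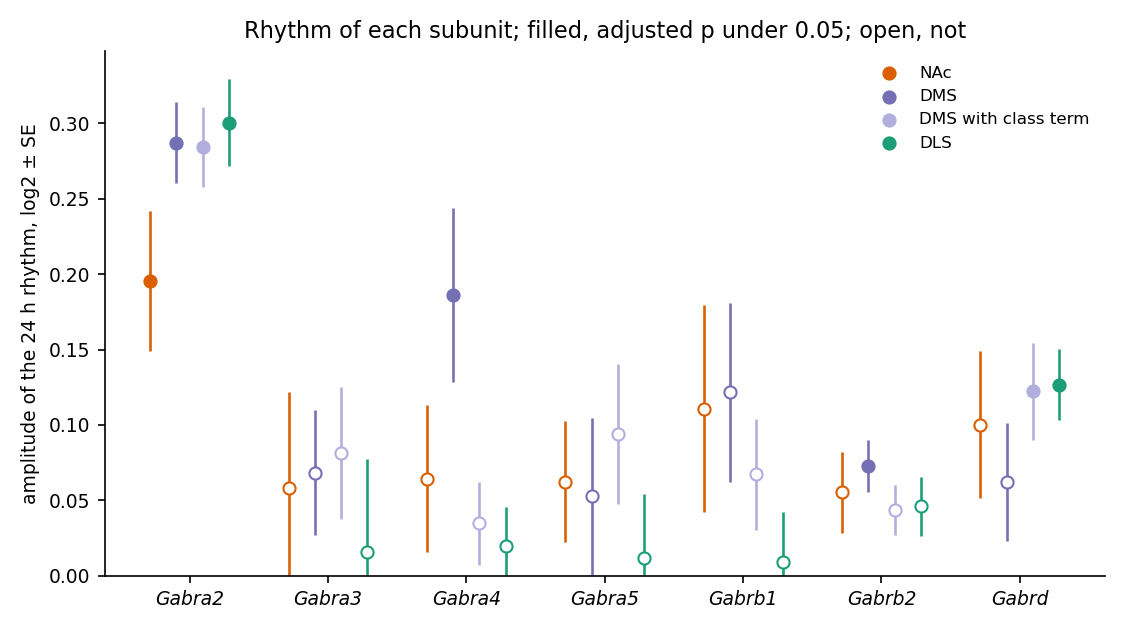
Fitted 24 h amplitude of each subunit gene (log2, ± SE) in NAc, DMS, DMS with the class term and DLS. Filled points have a Benjamini-Hochberg adjusted p under 0.05. Gabra2 has the highest amplitudes (0.20, 0.29, 0.28 and 0.30), and Gabrd is filled in DLS and in DMS with the class term.

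In DLS, the lowest, median and highest Gabra2 values (log2 normalised count) were 10.19, 10.49 and 10.80 at ZT2 (n = 11), 9.96, 10.36 and 10.57 at ZT6 (n = 12) and 9.86, 9.95 and 10.27 at ZT10 (n = 11). In the dark phase they were 9.88, 10.06 and 10.58 at ZT14, 10.44, 10.53 and 10.69 at ZT18 and 10.30, 10.53 and 10.89 at ZT22 (n = 12 each). Every library at ZT18 and ZT22 was above every library at ZT10, while ZT14 overlapped all other times. The amplitude was 0.30 ± 0.03 (SE) with a peak at ZT22.6, a fold of 1.52 and an adjusted p of 1.49e-12 by limma. Without the DLS library that stood apart, the amplitude was 0.30 and the adjusted p 2.62e-12 by limma. Within animals numbered up to 29 and from 31 alone it was 0.29 (adjusted p = 0.00024) and 0.30 (adjusted p = 1.2e-06). In these bulk punches fewer cells of a type and less RNA per cell cannot be told apart.

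In DMS, Gabra2 had 10.63, 10.86 and 11.13 (lowest, median, highest) at ZT2, 10.35, 10.57 and 10.75 at ZT6 and 10.21, 10.36 and 10.54 at ZT10. It had 10.35, 10.57 and 10.72 at ZT14, 10.82, 10.997 and 11.18 at ZT18 and 10.59, 10.88 and 11.12 at ZT22 (n = 11 or 12 at each time). The ZT18 libraries overlapped none at ZT6, ZT10 or ZT14. The amplitude was 0.29 ± 0.03, the peak ZT21.6, the fold 1.49 and the adjusted p 1.44e-12 by limma, and with the class term 0.28, ZT21.5, 1.48 and 1.42e-12.

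In NAc the spread within a time was wider. Gabra2 had 10.25, 10.62 and 10.97 (lowest, median, highest) at ZT2, 10.05, 10.50 and 10.98 at ZT6 and 9.21, 10.18 and 10.65 at ZT10, and then 10.06, 10.40 and 10.86 at ZT14, 10.18, 10.59 and 11.11 at ZT18 and 10.26, 10.56 and 10.87 at ZT22 (n = 12 to 14). All 6 times overlapped, and the median was lowest at ZT10, as in DMS and DLS. The amplitude was 0.20 ± 0.05, the peak ZT22.9, the fold 1.31 and the adjusted p 0.0212 by limma. Within animals numbered up to 29 and from 31 alone the amplitude was 0.20 (adjusted p = 0.0989) and 0.19 (adjusted p = 0.556), and with every library scaled to the same sum it was 0.20 (adjusted p = 0.186), so that the NAc call was lost in each case at a like amplitude. The NAc result moved with cortical neuron markers: the summed log2 level of the 4 detected ones was 8.34 to 14.30 over the NAc libraries, with medians of 9.82 at ZT2, 11.64 at ZT10 and 12.27 at ZT14, and with that sum as a covariate the Gabra2 amplitude was 0.16 and the adjusted p 0.0615 by limma. By limma 0 of those 4 markers passed the test for rhythm in NAc, and the part of cortical tissue in the Gabra2 result was not tested.

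**Figure D3:**
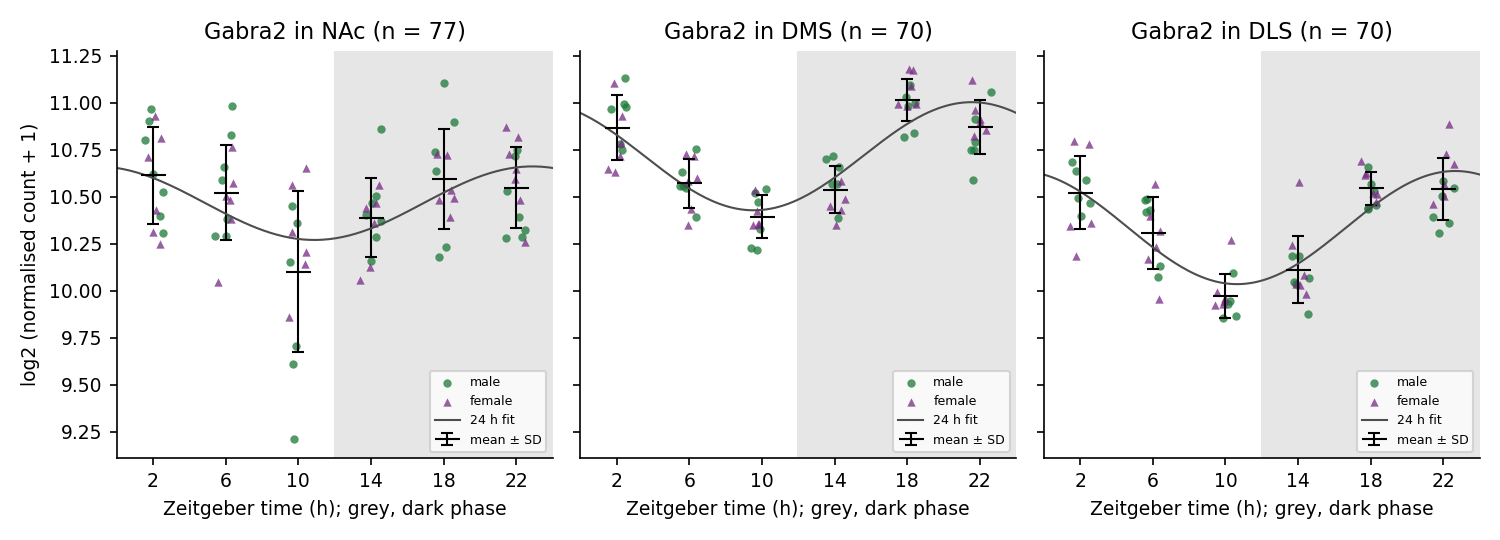
Gabra2 (log2 normalised count, vertical axis) against Zeitgeber time (h) in NAc, DMS and DLS. Points are libraries of males and females, markers with bars the mean ± SD at each time, the line the 24 h fit, and grey the dark phase. The lowest medians are at ZT10 in each region, and the DMS and DLS libraries at ZT18 lie above all of their region at ZT10.

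Among all genes ranked by fitted fold, Gabra2 stood at 118 in DLS, 682 in DMS (192 with the class term) and 826 in NAc. For a yardstick of phase, all 5 core clock genes chosen (Arntl, Nr1d1, Per2, Ciart and Dbp) were called in each region. The fitted peak of Gabra2 came before that of Arntl in each region, with the widest gap in DMS, and this gap was not tested. Arntl is the activator whose RNA reached its fitted peak at ZT23.9 in NAc and ZT23.5 in DMS and DLS. Its folds were 1.69, 1.95 and 2.02. The share of Gabra2 in the summed per-kilobase level of the 4 α members varied with time. Its mean was 10.6% at ZT2, 9.24% at ZT6, 7.61% at ZT10, 8.25% at ZT14, 10.2% at ZT18 and 11.4% at ZT22 in DLS, and 14.1%, 11.9%, 9.55%, 10.3%, 13.1% and 14.5% at the same times in DMS. In DMS a mean of 67% of that sum was Gabra4, which differed between the classes of mitochondrial rRNA share. The high class was spread unevenly over time, and the part of class in these DMS shares was not tested.

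Gabrd, the δ subunit, had its high values in the light phase in DLS. There it had 10.93, 11.14 and 11.42 (lowest, median, highest; log2 normalised count) at ZT2, 11.05, 11.23 and 11.47 at ZT6 and 11.09, 11.28 and 11.52 at ZT10, followed by 10.71, 11.08 and 11.24 at ZT14, 10.87, 10.97 and 11.17 at ZT18 and 10.74, 11.20 and 11.30 at ZT22. ZT18 had the lowest median and ZT10 the highest, and all 6 times overlapped. The amplitude was 0.13 ± 0.02, the peak ZT5.77, the fold 1.19 and the adjusted p 0.000139 by limma, and without the DLS library that stood apart 0.12 and 0.000347. Within animals numbered up to 29 and from 31 alone it was 0.15 (adjusted p = 0.0505) and 0.11 (adjusted p = 0.00366). With every library scaled to the same sum, which moves the library that stood apart by -2.36 (log2), it was 0.10 and the adjusted p 0.585.

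In DMS, Gabrd depended on class: its mean was 11.46 ± 0.21 in the high class (SD, n = 33) and 11.19 ± 0.18 in the low class (n = 37). The medians by time were 11.38, 11.31, 11.50, 11.17, 11.27 and 11.24 from ZT2 to ZT22, with wide overlap. Without the class term the amplitude was 0.06 ± 0.04 (adjusted p = 0.35, limma), and with it 0.12 ± 0.03, with a peak at ZT4.13, a fold of 1.18 and an adjusted p of 0.00881. Within the high class alone the amplitude was 0.18 (adjusted p = 0.00501), and within the low class alone 0.08 (adjusted p = 0.437), both by limma. In NAc the medians were 11.17, 11.12, 10.97, 11.07, 11.11 and 11.20 from ZT2 to ZT22, the amplitude 0.10 ± 0.05 and the adjusted p 0.471. In DLS, where both were called, Gabra2 minus Gabrd averaged -0.65, -0.94, -1.30, -0.91, -0.46 and -0.60 (log2) from ZT2 to ZT22, furthest apart at ZT10 and closest at ZT18.

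**Figure D4:**
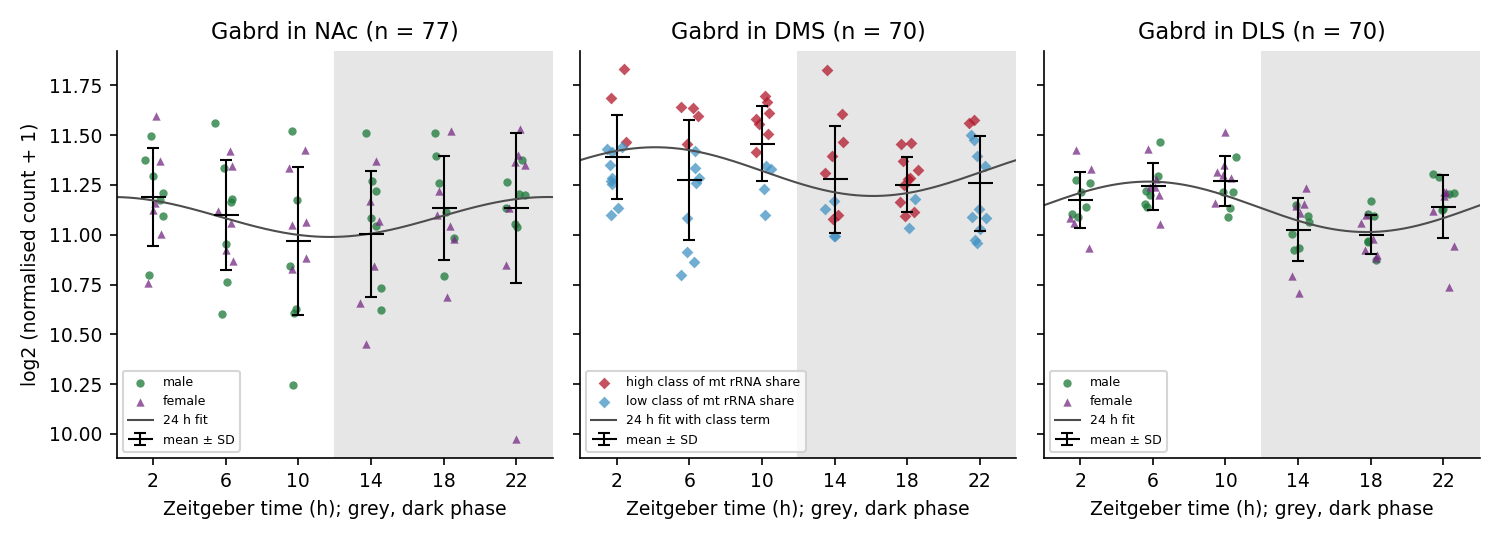
Gabrd (log2 normalised count, vertical axis) against Zeitgeber time (h) in NAc, DMS and DLS, drawn as for Gabra2, except that DMS libraries are coloured by class of mitochondrial rRNA share and the DMS curve is from the fit with the class term. In DLS the medians are highest at ZT6 and ZT10 (11.23 and 11.28) and lowest at ZT18 (10.97).

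Gabra4, the α subunit that pairs with δ outside the synapse, had DMS medians of 12.78, 12.50, 13.08, 13.07, 13.16 and 12.65 (log2 normalised count) from ZT2 to ZT22. This followed the classes: the high class ranged from 12.97 to 13.59 (mean 13.21 ± 0.15) and the low class from 12.23 to 12.82 (mean 12.56 ± 0.17), with no overlap. The amplitude was 0.19 ± 0.06 (fold 1.29, peak ZT14.8, adjusted p = 0.0201, limma) without the class term and 0.03 (adjusted p = 0.585) with it. Its adjusted p for rhythm was 0.722 in NAc and 0.833 in DLS. Gabrb1, head to head with Gabra4 on chromosome 5, differed between the classes in the other direction, at 11.52 ± 0.27 in the high class (10.75 to 11.98) and 12.11 ± 0.13 in the low class (11.78 to 12.34). The classes were drawn from the data, and for Gabra4 and Gabrb1 alike their differences are a description with no test. The share of all genes that differed likewise, or without overlap, is not given here. Among all DMS genes the class term lowered the rhythmic share from 51.3% to 25.2%.

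Gabrb2, the β2 subunit, had DMS medians of 11.82, 11.82, 11.93, 11.95, 11.98 and 11.82 from ZT2 to ZT22 and an amplitude of 0.07 ± 0.02 (fold 1.11, peak ZT14.1, adjusted p = 0.00259, limma). With the class term the amplitude was 0.04 and the adjusted p 0.105, and the class means were 11.94 (high) and 11.81 (low). Gabrb2 had adjusted p values of 0.48 in NAc and 0.186 in DLS. The members with no such call in any region had adjusted p values, in NAc, DMS, DMS with the class term and DLS, of 0.849, 0.33, 0.324 and 0.979 for Gabra3, 0.646, 0.653, 0.264 and 0.975 for Gabra5, and 0.625, 0.182, 0.339 and 0.977 for Gabrb1. With time as 6 levels in place of the cosine, Gabrb1 was called in DMS with the class term (adjusted p = 0.039, limma), where 32.4% of all genes were. Their DLS amplitudes were the smallest, at 0.02 ± 0.06 for Gabra3, 0.01 ± 0.04 for Gabra5 and 0.01 ± 0.03 for Gabrb1.

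Next, the dark phase was set against the light phase with time as 6 levels. In DMS, Gabra2 had 10.35, 10.84 and 11.18 (lowest, median, highest) in the dark, against 10.21, 10.59 and 11.13 in the light. In DLS it had 9.88, 10.47 and 10.89 in the dark, against 9.86, 10.29 and 10.80 in the light, so that both phases spanned nearly the whole range. Dark minus light was 0.20 in DMS (adjusted p = 2.95e-05) and 0.13 in DLS (adjusted p = 0.0165, both by limma), and 0.10 in NAc (adjusted p = 0.508). Without the DLS library that stood apart, the DLS difference was 0.13 (adjusted p = 0.0238, limma). With every library scaled to the same sum Gabra2 was called in neither DMS (0.09, adjusted p = 0.382) nor DLS (0.18, adjusted p = 0.9005). The DLS call was also lost at the same sum outside rRNA (0.14, adjusted p = 0.0698) and in animals numbered up to 29 (0.16, adjusted p = 0.251) or from 31 (0.12, adjusted p = 0.0709) alone. Gabrd in DLS had 10.71, 11.10 and 11.30 in the dark, against 10.93, 11.22 and 11.52 in the light, a difference of -0.17 (adjusted p = 0.000125, limma), and -0.17 (adjusted p = 0.00023) without the library that stood apart. Scaled to the same sum it was -0.13 (adjusted p = 0.998). In DMS its difference was -0.11 (adjusted p = 0.218) without and -0.16 (adjusted p = 0.00378) with the class term. Members called were 0 of 7 in NAc (1.28% of all genes were called) and 1 of 7 in DMS (8.4%). They were 2 of 7 in DMS with the class term (14.6%) and 2 of 7 in DLS (8.52%). In NAc 0 members, and 1543 of 11867 genes, had an unadjusted p under 0.05 by limma.

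In DMS and DLS, times 12 h apart gave larger differences for Gabra2 than the phase means did, with the trough of its values at ZT10 and the fitted peak between ZT21.6 and ZT22.9. ZT22 minus ZT10 was 0.45 in NAc (adjusted p = 0.0412), 0.47 in DMS (1.05e-08) and 0.57 in DLS (1.01e-09, all by limma), where 0.261%, 10.7% and 6.34% of all genes were called. ZT18 minus ZT6 was 0.44 in DMS (adjusted p = 2.43e-08) and 0.24 in DLS (0.0122), where 17.4% and 7.01% were called. Without the DLS library that stood apart, a male at ZT6, it was 0.22 in DLS (adjusted p = 0.0256, limma). ZT14 minus ZT2 had the opposite sign, at -0.33 in DMS (adjusted p = 4.65e-05) and -0.41 in DLS (5.01e-06), where 15.3% and 8.29% were called. So in DMS and DLS Gabra2 was lower at ZT14 than at ZT2, while its dark mean was above its light mean. In NAc, Gabra2 was called by limma neither for ZT18 minus ZT6 nor for ZT14 minus ZT2.

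For Gabrd, ZT18 minus ZT6 was -0.24 in DLS (adjusted p = 0.00202, limma), and -0.22 (adjusted p = 0.00674) without the library that stood apart. In DMS with the class term it was -0.20 (adjusted p = 0.0388), where 22.3% of all genes were called. In DMS with that term Gabrd also had -0.24 for ZT14 minus ZT2 (adjusted p = 0.0198), where 8.85% were called. Its other pairs did not pass: ZT14 minus ZT2 was -0.15 (adjusted p = 0.0976) and ZT22 minus ZT10 -0.13 (adjusted p = 0.163) in DLS, and ZT22 minus ZT10 was -0.036 (adjusted p = 0.863) in DMS with the class term. Without that term no pair passed for Gabrd in DMS, nor did any in NAc. Without the class term, Gabrb2 had 0.13 for ZT14 minus ZT2 (adjusted p = 0.0309) and Gabra4 0.41 for ZT18 minus ZT6 (adjusted p = 0.0275) in DMS. Neither Gabrb2 nor Gabra4 was called in these pairs with the class term.

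Between males and females no member passed the test in any region by limma, where 0.0758% of all genes were called in NAc, 0.909% in DMS, 4.21% in DMS with the class term and 0.202% in DLS. Leaving out 1 library moved these counts of all genes by over 1.5 times in 3 cases, with no member called: from 110 to 168 in DMS without a male at ZT22, from 509 to 824 in DMS with the class term without a female at ZT14, and from 23 to 37 in DLS without a male at ZT10. The smallest unadjusted p values were for Gabra3 in DLS, with a mean of 8.84 in males and 9.05 in females (male minus female -0.22, adjusted p = 0.409, limma), and for Gabra5 in DMS, with 8.93 in males and 9.11 in females (-0.17, adjusted p = 0.341). At an unadjusted p under 0.05 there were 0 members in NAc, 1 in DMS and 1 in DLS, and a fit by voom on recovered reads called 0 members in DMS and 0 in DLS. The rhythm of Gabra2 was called in each sex alone in DMS, with an amplitude of 0.26 in males and 0.32 in females, and in DLS, with 0.29 in males and 0.32 in females. Among all genes 9.92% were called in DMS males and 17.9% in DMS females, and 4.4% in DLS males and 17.8% in DLS females. In NAc, with 0.295% of genes called in males and 0.716% in females, Gabra2 was called in neither sex (0.22 in males, 0.17 in females).

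Gabrd in DLS had an amplitude of 0.11 in males (adjusted p = 0.0945) and 0.16 in females (adjusted p = 0.00122, limma), and in DMS with the class term 0.20 in males (adjusted p = 0.00171) and 0.07 in females (adjusted p = 0.498). With the class term 12.6% of all genes were called in DMS males and 12.7% in DMS females. Gabrb2 in DMS was called in each sex without the class term (0.08 in males, 0.09 in females) and in neither with it (0.057 in males, adjusted p = 0.136; 0.063 in females, adjusted p = 0.123). Gabra4 in DMS with the class term was called in females (0.13, adjusted p = 0.0235, limma) and not in males (0.08, adjusted p = 0.231). The difference of the rhythm between the sexes was tested itself: it was called for 0 genes in each region by limma and by voom in DMS and DLS, with 475, 459 and 1284 genes in NAc, DMS and DLS at an unadjusted p under 0.05. With the class term in DMS, 0 genes were called and 1144 had an unadjusted p under 0.05, by limma. The unequal calls for Gabrd and Gabra4 are thus not shown to be sex differences. Before adjustment the lowest p values among the members for that difference were 0.000549 for Gabra4 (adjusted 0.336) and 0.0113 for Gabrd in DMS with the class term, 0.026 for Gabrb2 in DMS and 0.0263 for Gabra4 in DLS.

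The rhythm was also set against itself between regions, over 11283 genes present in all 3 tables. No member differed by limma: the adjusted p of Gabra2 was 0.24 for NAc and DMS, 0.659 for NAc and DLS and 0.688 for DMS and DLS, and that of Gabrd was 0.445 for NAc and DLS. At an unadjusted p under 0.05 there were 2 members for NAc and DMS, 1 for NAc and DLS and 1 for DMS and DLS. All genes at that cut numbered 2436, 1011 and 982 of 11283, in the same order. With the class term in DMS there were 0, 1 and 0 members, among 1218, 1285 and 91 genes. Among all genes 0.257% were called for NAc and DLS and 0% for each of the other pairs of regions. The absence of a call for Gabrd in NAc is therefore not shown to differ from its call in DLS.

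Which other genes followed the members over the day was described by Pearson's r over 36 means (region by sex by time), each region and sex centred on its own mean, for the 11283 shared genes. Before the DMS means were taken, each gene's difference between the classes of mitochondrial rRNA share was removed, fitted beside sex and time. These means share libraries and the 24 h cycle, and r is given with no test. Gabra2 was most like Hsph1 (0.92) and Hsp90b1 (0.91), both protein chaperones, and Zfr (0.90), an RNA-binding protein. Against the clock genes, Gabra2 had r = 0.77 with Arntl, -0.77 with Nr1d1, -0.81 with Ciart, -0.75 with Dbp and 0.05 with Per2. Gabrb1 was most like Ptprt (0.91), Chd6 (0.87) and Prrc2c (0.86), and Gabra4 like Stau2 (0.83) and Fat3 (0.81). Gabra3 was most like Slc8a1 (0.83), Vsnl1 (0.81) and Car10 (0.80), and Gabrd like Gsdme (0.81), Ovca2 (0.80) and Tsnax (0.80). The likeness was lower for Gabrb2, with Lfng (0.75), Ubxn7 (0.74) and Col4a3bp (0.73), and for Gabra5, with Coro1a (0.64), Snap47 (0.63) and Shisa5 (0.63). The neighbours Gabra4 and Gabrb1 had r = -0.55 with each other.

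The members were also set beside markers of cell types across the libraries of a region. The 7 members were set against the summed level of medium spiny neuron markers and that of cortical excitatory neuron markers in each region, 42 relations in all, each with a two-sided test of 100000 permutations whose smallest possible p is 1e-05. The relations of Gabra3 and Gabrd given here were chosen after their values were seen, and such relations were not particular to these 2 members. With the medium spiny neuron markers, r for Gabra4 was 0.58 in NAc, 0.47 in DMS and -0.02 in DLS. For Gabra5 it was -0.27, 0.03 and -0.60 in the same order. The share of all genes with such relations is not given here. Gabra3 was higher where the cortical markers were higher: Pearson's r was 0.48 in NAc, 0.53 in DMS and 0.78 in DLS (permutation p = 2e-05, 1e-05 and 1e-05, Benjamini-Hochberg adjusted over the 42 relations 7e-05, 3.82e-05 and 3.82e-05). Spearman's rho was 0.50, 0.32 and 0.78 (permutation p = 3e-05, 0.00601 and 1e-05, adjusted 0.000126, 0.0133 and 5.25e-05). Without the 2 libraries farthest from the median, r was 0.47, 0.40 and 0.75. In animals numbered up to 29 and from 31, r for Gabra3 was 0.38 and 0.64 in NAc and 0.83 and 0.76 in DLS, and in the high and low classes of DMS 0.33 and 0.69. Gabra3 was also lower where the medium spiny neuron markers were higher, with r = -0.68 in NAc, -0.59 in DMS and -0.69 in DLS.

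Gabrd was higher where the medium spiny neuron markers were higher, with r = 0.69 in NAc, 0.64 in DMS and 0.31 in DLS (permutation p = 1e-05, 1e-05 and 0.00987, adjusted 3.82e-05, 3.82e-05 and 0.0188). Spearman's rho was 0.58, 0.60 and 0.37 (permutation p = 1e-05, 1e-05 and 0.00164, adjusted 5.25e-05, 5.25e-05 and 0.00405), and r without the 2 farthest libraries was 0.59, 0.57 and 0.34. In animals numbered up to 29 and from 31, r for Gabrd was 0.68 and 0.72 in NAc and 0.13 and 0.34 in DLS, and in the high and low classes of DMS 0.45 and 0.81. These markers were themselves partly rhythmic in DLS (7 of 10: Adora2a, Pde10a, Pdyn, Penk, Ppp1r1b, Rgs9 and Tac1), while their summed log2 level ranged only from 17.20 to 17.90, with medians between 17.65 and 17.77 over the 6 times. With that sum as a covariate the Gabrd amplitude in DLS was 0.14 (adjusted p = 3.14e-06) and in DMS 0.13 (adjusted p = 0.00106), and that of Gabra2 was 0.18 in NAc (adjusted p = 0.0413), 0.28 in DMS (2.22e-11) and 0.29 in DLS (3.28e-11), all by limma.

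**Figure D5:**
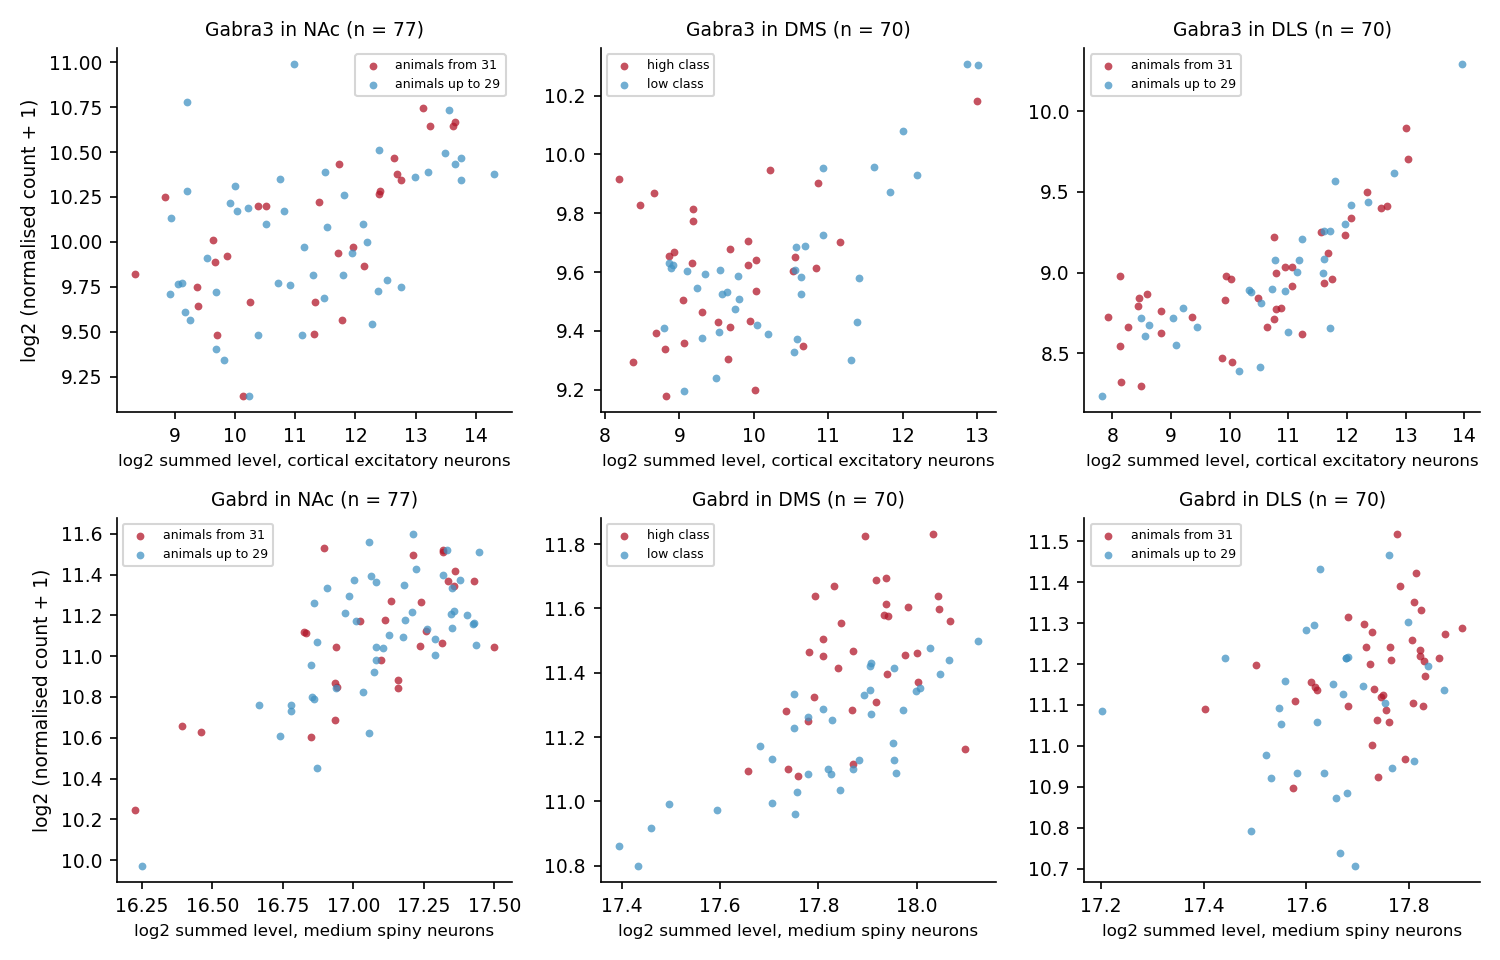
Gabra3 against the summed level of cortical excitatory neuron markers (upper row) and Gabrd against that of medium spiny neuron markers (lower row), in NAc, DMS and DLS. All axes are log2, points are libraries, and colours give the class of mitochondrial rRNA share in DMS and the range of animal numbers in NAc and DLS. Gabra3 has r = 0.48, 0.53 and 0.78, and Gabrd r = 0.69, 0.64 and 0.31.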

How the data were processed

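RNA was taken from 1 mm punches, made into libraries with a stranded total RNA kit for ultra-low input and sequenced as 75 bp pairs at a target of 40 M reads, per the labels' protocols. Trimmomatic, FastQC, HISAT2 2.1.0, HTSeq 0.10.0 and DESeq2 were used by the authors per the submitters' processing notes, which give a human build although the design text names mouse Ensembl GRCm38. The deposited values are 1 table per region on a log2 scale. In DMS and DLS the deposited log2 values were whole read counts divided by a factor per library plus a pseudocount of 1: 100% of values came out whole within 0.01 reads, and these recovered counts give the depth. In NAc a median of 2.06% did, and 9 of 913759 values were below 0. The spread of t between ranges of animal numbers (SD 0.367 in NAc, 6.24 in DMS, 2.38 in DLS) also set the NAc table apart, so it may hold a further adjustment by the authors that the sources used here do not give, and its p values may be affected.

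Groups came from the sample titles and characteristics. Models were fitted with limma 3.58.1 in R 4.3.3 (variance trend, sex as a term, Benjamini-Hochberg adjustment over all genes of a table). In DMS and DLS, voom on recovered reads was an alternative. The rhythm fit was also run on simulated independent noise with added rhythms. That simulation held no classes of mitochondrial rRNA share, so it cannot show how the classes affect the DMS calls. Tables were normalised separately, so levels were compared between regions without a test. Same-numbered males and females are different animals, and nothing in the labels pairs them. Libraries of a group come from separate animals. Some animals gave several regions, which the comparison of rhythms between regions treats as independent, with animal as a block as an alternative. Promoter windows came from RefSeq and gene models from GENCODE M21, to which 11842, 12073 and 11371 genes of the NAc, DMS and DLS tables matched by identifier. The class of mitochondrial rRNA share was split at 32.58%, in the widest gap. Other settings were another scaling, pseudocount 8, a mean log2 of at least 6, covariates and each library left out in turn. Named were all members, the 3 most similar genes to each, and rhythmic genes of the other GABA lists. Some genes that this rule names are not reported here. The members and lists were chosen with earlier results of these data known.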

Additional observations from a re-analysis of the deposited data

Results flagged for a closer look

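Within each region, sex and time, the highest and lowest library of each member was checked for its distance from the others. Of 252 groups, 13 held a library that stood apart, which is close to the share of about 5% that chance alone would give. Values are log2 normalised counts, followed by the range of the other libraries of the same group.

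Gabra4 accounted for 5 of these. Its highest DMS male at ZT22 had 13.4332 (others 12.30 to 12.62). In DLS males it had 13.1812 at ZT14 (others 12.90 to 13.004) and 13.3384 at ZT18 (others 12.996 to 13.08). In NAc at ZT2 a male was low at 12.2491 (others 12.51 to 12.70), and a female was high at 13.1275 (others 12.36 to 12.64).

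Gabrb1 had 3, all low and all in DMS: a male at ZT22 with 11.0257 (others 11.90 to 12.34), a male at ZT2 with 11.4696 (others 12.01 to 12.27) and a female at ZT22 with 11.3838 (others 11.96 to 12.19). The ZT22 male that was low for Gabrb1 is the one that was high for Gabra4. All 3 of these Gabrb1 libraries belong to the high class of mitochondrial rRNA share, and each was the only library of its group in that class. They thus differ from their groups in the direction already given for the classes.

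Gabra3 was high in a DMS male at ZT14 with 10.3034 (others 9.60 to 9.73) and in a DMS male at ZT22 with 9.87343 (others 9.30 to 9.42), both in the low class. Gabra5 was low in a DMS male at ZT14 with 8.5342 (others 8.84 to 8.94). Gabrd was high in a DMS male at ZT14 with 11.464 (others 10.99 to 11.13). Gabra2 was high in a DLS female at ZT10 with 10.2687 (others 9.92 to 9.99), the library that sets the upper end of the DLS range at ZT10.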

How the results depend on the processing

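All counts here are of the 7 members past the threshold by limma, and the cause of a change was not tested. Rhythmic in NAc, 1 as reported, became 0 with every library scaled to an equal sum, with or without rRNA, with the cortical marker sum as a covariate, and in animals up to 29 or from 31 alone. Rhythmic in DMS, 3 as reported, became 5 at an equal sum (Gabra4 lost, Gabra5, Gabrb1 and Gabrd added) and 1 in the low class alone, and was 2 to 4 in all other settings, among them 4 with the range term, the mitochondrial rRNA share or the medium spiny neuron marker sum. Rhythmic in DLS, 2 as reported, became 1 at an equal sum and in animals up to 29 alone, and 3 (with Gabrb2) in animals from 31 alone. Dark minus light in DMS, 1 as reported, became 2 with the class term, the range of animal numbers, the mitochondrial rRNA share or the medium spiny neuron marker sum in the model, with the class term and replicate block together, and at an equal sum outside rRNA, while at an equal sum the 1 was Gabrd and not Gabra2. Dark minus light in DLS, 2 as reported, became 0 at an equal sum and 1 at an equal sum outside rRNA and in either range of animal numbers alone (Gabrd in each case). Male minus female in DMS, 0 as reported, became 1 (Gabra5, -0.19) with the share of mitochondrial rRNA in the model. Past the threshold in both fits but with the peak at another time of day, Gabra4 in DMS had an amplitude of 0.077 (peak ZT22.9) with that share in the model. Likewise Gabrb2 in DMS had 0.10 (peak ZT2.24) at an equal sum. With animal number as a replicate block, rhythmic members were 1 in NAc, 2 in DMS (Gabra4 at 0.17, adjusted p = 0.0625, was lost) and 2 in DLS, while the residuals of same-numbered animals correlated above 0.1 in 9 of 26, 2 of 25 and 5 of 24 pairs. With animal as a block over regions 0 members differed between regions. Leaving out each library in turn kept 1 rhythmic member in NAc, 3 in DMS and 2 in DLS (2 to 3 in DMS with the class term). Over all genes, rhythmic counts moved by over 1.5 times from 304 in NAc to 108 (equal sum), 508 (mitochondrial rRNA share) and 32 (animals from 31), from 6207 in DMS to 9320 (equal sum), 3772 (range term), 3459 (share), 3051 (class), 3246 (class and replicate block), 948 (low class) and 1811 (high class), and from 2392 in DLS to 216 (equal sum), 1477 (equal sum outside rRNA) and 331 (animals up to 29). Dark minus light moved from 152 in NAc to 74 (equal sum) and 5 (animals from 31), from 1016 in DMS to 2055 (range term), 1974 (share), 1771 (class), 2030 (class and replicate block), 189 (low class) and 345 (high class), and from 971 in DLS to 27 (equal sum), 463 (equal sum outside rRNA) and 121 (animals up to 29). Male minus female moved from 9 in NAc to 330 (share) and 4 (animals from 31), from 110 in DMS to between 22 (equal sum) and 1995 (range term), and from 23 in DLS to 12 (equal sum) and 6 (animals up to 29). The equal sum moved all genes by -0.11 in DMS between dark and light.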

Other observations

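Around the 7 members, 58 other genes of GABA signalling were listed, with 46 in the NAc table, 47 in the DMS table and 46 in the DLS table. By limma, 0 of them were rhythmic in NAc, 28 in DMS, 15 in DMS with the class term and 10 in DLS, where the shares over all genes were 2.56%, 51.3%, 25.2% and 21%. Of 12 other GABA-A subunits, 5 were in the DLS table and 0 were rhythmic there.

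Among 25 measured genes for anchoring and trafficking of the receptors, 6 were rhythmic in DLS. Insyn1, a component of the inhibitory postsynapse, had the highest fold of these, 1.22, with a peak at ZT1.42 (adjusted p = 0.00459, limma), and in DMS with the class term 1.18 with a peak at ZT0.833. Gphn, which encodes the scaffold gephyrin, had a fold of 1.10 in both, with peaks at ZT2.24 in DLS and ZT1.32 in DMS with the class term. In DLS, Nlgn2 (neuroligin 2, an adhesion protein of inhibitory synapses) peaked at ZT4.83 with a fold of 1.17, and Slitrk3, also an adhesion protein of inhibitory synapses, at ZT19.8 with 1.10. Gabarap (fold 1.15) and Clptm1 (fold 1.10) completed the DLS list. With the class term in DMS, 8 were called: Gphn, Insyn1, Slitrk3 (1.15), Plcl1 (1.14), Shisa7 (1.20), Trak1 (1.17), Dgkh (1.14) and Ubqln1 (1.06).

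The enzymes of GABA synthesis were rhythmic in DLS, Gad1 with a fold of 1.10 (peak ZT2.71) and Gad2 with 1.13 (peak ZT23.1). The chloride exporter gene Slc12a5 had 1.13 (peak ZT6.32) and the GABA-B auxiliary subunit gene Kctd16 1.20 (peak ZT17.3). In DMS with the class term the called genes of these lists included Gad2 (1.12), Kctd12 (1.13), Kctd16 (1.21), the chloride importer gene Slc12a2 (1.16) and Dbi (1.20), which encodes a ligand of the benzodiazepine site. These lists were chosen with earlier results of these data known.

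Without the class term, the genes called in DMS included, among the other subunits, Gabrg1 with a fold of 1.47 and Gabrg3 with 1.21. Of the anchoring and trafficking genes, Kif5a, a motor protein gene, had 2.38, Shisa7 1.64, Insyn1 and Iqsec3 1.46 each, Lhfpl4 1.43, Nlgn2 1.36, Gabarap 1.31, Plcl2 1.249, Trak1 1.23, Dgkh 1.22, Plcl1 and Nlgn3 1.20 each, Gabarapl2 and Slitrk3 1.18 each and Ubqln1 1.08. Also called were Gabbr2 (1.45), Kctd12 (1.24), Kctd16 (1.19), Slc12a2 (1.22), Dbi (1.21), Gad2 (1.15) and Aldh5a1 (1.12). In DMS the high class of mitochondrial rRNA share was spread unevenly over time, and Kif5a, Iqsec3, Lhfpl4 and Gabbr2 were not called with the class term.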
